A study of Mus musculus with 12 samples.

Results

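Transcript levels of 10 SR splicing factor genes, Srsf1, Srsf2, Srsf3, Srsf4, Srsf5, Srsf6, Srsf7, Srsf11, Tra2a and Tra2b, were examined in livers of hFIX-R29X mice after depletion of the NMD factor Upf3b. The genes were found by symbol through their Ensembl transcript identifiers and were 10 of the 31114 genes joined. The mice lack the mouse factor IX gene and carry a minigene for human factor IX that holds a nonsense codon, and all groups share this background. Groups of 4 animals (replicates 1 and 2 female, replicates 3 and 4 male), aged 8 to 14 weeks, were given 6 doses, 1 every 5 days, of DPBS (the vehicle), Control-GalNAc-ASO (15 mg/kg, a scrambled antisense oligonucleotide, here Control-ASO) or Upf3b-GalNAc-ASO (10 mg/kg, here Upf3b-ASO). Livers were collected 48 h after the last dose and their total RNA was sequenced, 1 library per animal. GalNAc is a sugar ligand taken up by hepatocytes, so depletion is directed to these cells, while the RNA came from whole liver. Control-ASO was given at the higher dose, so dose and sequence of the oligonucleotide cannot be told apart between the ASO groups.

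SR proteins bind exons through an RNA recognition motif and recruit the spliceosome through a domain rich in arginine and serine. Srsf1 to Srsf7 and Srsf11 belong to the SR or SR-like family, and Tra2a and Tra2b are related activators that act with them. Many of these genes hold an ultraconserved poison exon or a retained intron whose inclusion places a stop codon upstream of an exon junction. Such a transcript is a substrate of nonsense-mediated mRNA decay (NMD), and a high level of the protein favours its own poison isoform, which limits the protein. UPF3B binds the exon junction complex and takes part in the NMD branch that reads such downstream junctions.

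The files listed 65 transcripts of the 10 genes, of which 13 carried the nonsense_mediated_decay biotype (NMD transcripts here), 24 the retained_intron biotype, 23 the protein_coding biotype and 5 the processed_transcript biotype. At least 10 estimated counts in at least 4 livers, the requirement for a test, were reached by 53 transcripts: 10 NMD, 21 retained-intron, 19 coding and 3 processed transcripts. Srsf7 and Tra2a had a single listed transcript each, which is coding, so reads of any decay isoform of these 2 genes could not be told apart from it. In all 13 NMD transcripts the annotated stop codon lay more than 50 bases upstream of the last exon junction, at a distance of 67 to 1015 bases. In 8 of the 13 it lay in an exon that did not overlap the most abundant coding transcript of the gene, which is the poison exon layout. For 1 of these, Srsf4-204, the exon is exon 1 of 6, and the model begins inside exon 2 of Srsf4-203. Srsf2-204 and Srsf2-202 kept the stop codon of the coding transcript and gained junctions behind it, and in Srsf1-204, Srsf1-207 and Srsf5-208 the stop lay in an exon that partly overlapped a coding exon.

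The start of the stop-bearing exon is shown for 1 NMD transcript of each of the 8 genes that had any, because it holds the stop codon upstream of a junction for which the isoform is annotated as an NMD substrate. Each runs from the first base of the exon to the end of the stop codon, which is in capitals, 5′ to 3′ on the sense strand (GENCODE M21 transcripts, GRCm38). The stretch of Srsf6-201 is at chr2:162932815-162932966, plus strand, that of Srsf4-203 at chr4:131884276-131884390, plus strand, that of Srsf3-201 at chr17:29039454-29039487, plus strand, that of Tra2b-206 at chr16:22259181-22259261, minus strand and that of Srsf11-210 at chr3:158024209-158024231, minus strand. That of Srsf1-204 is at chr11:88049977-88050015, plus strand, that of Srsf5-208 at chr12:80947116-80947130, plus strand and that of Srsf2-204 at chr11:116852028-116852086, minus strand. The lengths of Srsf3-201 and Tra2b-206 in the files differ from those of this annotation release.
Srsf6-201: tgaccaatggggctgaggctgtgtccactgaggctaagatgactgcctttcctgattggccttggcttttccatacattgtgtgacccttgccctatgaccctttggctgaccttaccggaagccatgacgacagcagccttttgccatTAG
Srsf4-203: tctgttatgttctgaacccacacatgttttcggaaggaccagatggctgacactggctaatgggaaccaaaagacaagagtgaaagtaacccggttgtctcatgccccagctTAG
Srsf3-201: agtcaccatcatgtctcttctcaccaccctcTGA
Tra2b-206: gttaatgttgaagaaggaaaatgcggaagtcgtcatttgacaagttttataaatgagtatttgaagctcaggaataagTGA
Srsf11-210: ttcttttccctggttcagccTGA
Srsf1-204: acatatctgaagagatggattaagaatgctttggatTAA
Srsf5-208: ggcttctctgtaTAG
Srsf2-204: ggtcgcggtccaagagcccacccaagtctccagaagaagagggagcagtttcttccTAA

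The full stop-bearing exon of Srsf6-201 is 268 bases long and is exon 3 of 7, at chr2:162932815-162933082. It lies inside intron 2 of the coding transcript Srsf6-203, and Srsf6-204, a retained-intron transcript, keeps the whole of that intron, poison exon included. Srsf6-202, a short coding model that shares the start of the exon, had 0 counts in all 12 livers.

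**Figure D1:**
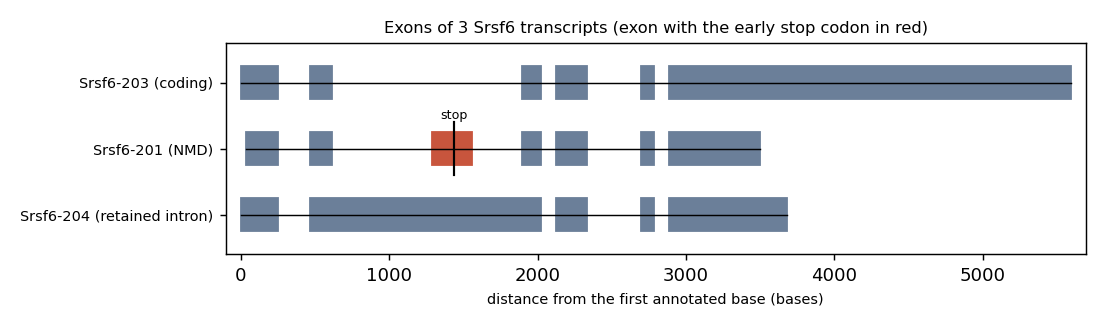
Exons of the 3 Srsf6 transcripts with counts, drawn to scale as boxes against distance in bases from the first annotated base, with introns as lines. The 268-base exon that carries the early stop codon (red, stop marked) is in Srsf6-201, and Srsf6-204 reads through the same intron.

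Upf3b, the target of the ASO, was at 10.4, 9.37, 13.5 and 10.9 CPM in DPBS livers 1 to 4, at 8.60, 9.55, 7.93 and 12 CPM in Control-ASO livers and at 1.58, 0.650, 0.996 and 0.674 CPM in Upf3b-ASO livers. CPM are estimated counts scaled to the library's total after TMM normalization. All 4 treated livers lay under all 8 others, and Upf3b fell by 3.30 ± 0.27 (log2 difference ± SE) against Control-ASO (edgeR quasi-likelihood test, Benjamini-Hochberg adjusted p = 7.4e-05) and by 3.51 ± 0.27 against DPBS (adjusted p = 3.2e-05). Depth was 13.28 to 20.39 M estimated counts per liver, lowest in the Upf3b-ASO group. All 5 hepatocyte markers were expressed in every group, with a summed level of 43480 to 91180 CPM, and 1 of the 5 fell in both Upf3b-ASO comparisons. No tested marker of Kupffer, endothelial, stellate, bile duct or erythroid cells was called, and lymphoid and neutrophil markers were too low to be tested. Control-ASO replicate 1 had the highest neutrophil (38.65 CPM), erythroid (1623 CPM) and Kupffer (615.3 CPM) sums, where the other 11 livers had 0.38 to 7.856, 116.8 to 353 and 223.5 to 432.8 CPM. Without that liver too, no member gene or transcript passed. Control-ASO replicate 3, a male, stood apart: its 8 acute-phase genes summed to 51010 CPM against 6152 to 8952 CPM in the other 11 livers. Its retained-intron share and TMM factor were also at the edge of the series (24.22% of TPM and 0.775). Results of the 10 genes that turn on this liver are given with and without it.

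At the gene level, none of the 10 SR factors passed the test between Upf3b-ASO and Control-ASO, between Upf3b-ASO and DPBS or between Control-ASO and DPBS when all 12 livers were used. Of the 8846 genes tested, 10.3% were called (either direction, adjusted p under 0.05) in the first comparison, 8.93% in the second and 0.0113% in the third. At an unadjusted p under 0.05, 2 of 10 members passed against Control-ASO (Srsf6 and Tra2a), 1 against DPBS (Tra2a) and 0 between the reference groups, beside 28.0, 23.2 and 6.97% of all genes tested, so the members were not above the background. The median log2 difference of the members was 0.04 against Control-ASO and -0.01 against DPBS, beside -0.02 and 0 over all genes tested. In bulk RNA, fewer cells that express a gene and less RNA per cell cannot be told apart.

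**Figure D2:**
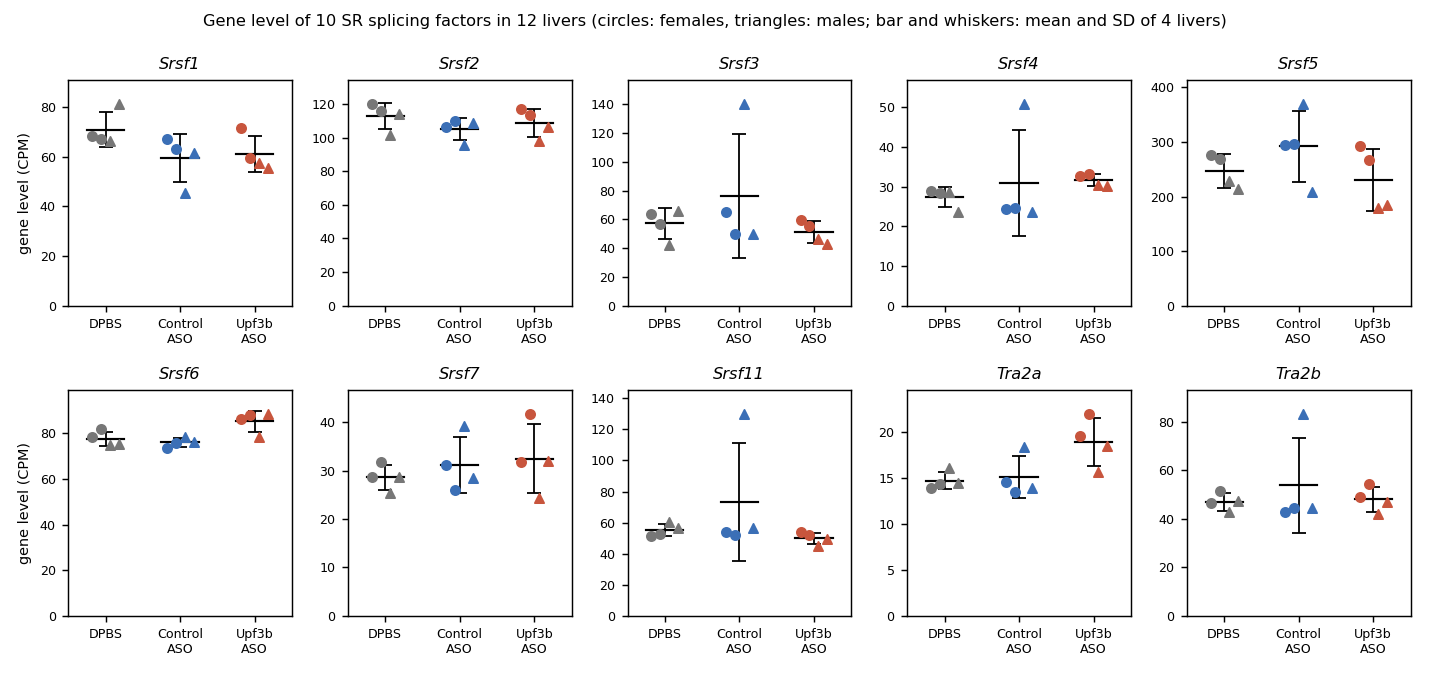
Gene level in CPM (y axis, from 0) of the 10 SR factor genes in DPBS, Control-ASO and Upf3b-ASO livers (x axis), 1 point per liver, with the mean and SD of 4 livers. The single high Control-ASO point of Srsf3, Srsf4, Srsf11 and Tra2b is replicate 3, and the 4 Upf3b-ASO points of Srsf4 lie above the 4 DPBS points.

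Control-ASO replicate 3 had the highest CPM of all 12 livers for 5 of the 10 genes. Srsf3, the smallest SR protein and an export adaptor, was at 140.3 CPM in it and at 41.9 to 66.0 CPM in the other 11 livers. Srsf11, an SR-like factor that contacts the splice site recognition machinery, was at 129.9 CPM against 45.2 to 60.1 CPM. Srsf4 was at 50.8 CPM against 23.5 to 33.3 CPM and Tra2b at 83.1 CPM against 42.0 to 54.4 CPM. In CPM, each of Srsf3, Srsf11, Srsf4 and Tra2b lay above the maximum of the other livers by more than the whole range of those livers. Srsf5, at 369.6 CPM against 179.5 to 295.4 CPM, did not. In TPM, which are not scaled by the TMM factor, the margins were smaller. There Srsf3 was at 85.87 against up to 59.15 and Srsf11 at 88.53 against up to 63.43. Srsf4 was at 23.61 TPM against up to 22.78 and Tra2b at 41.68 against up to 41.19. Srsf5, at 225.3 TPM, was under Control-ASO replicate 1 (252.1 TPM). Srsf1 and Srsf2 were lowest in the same liver, at 45.2 CPM against 55.3 to 81.1 CPM and at 95.8 CPM against 98.0 to 120 CPM, while Srsf6, at 78.5 CPM, was within the range of the others. Relative to the mean of the other 3 Control-ASO livers the ratio ran from 0.71 (Srsf1) to 2.56 (Srsf3). The part of the acute-phase state of this liver in these levels was not tested.

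Tra2a and Srsf4 rose under Upf3b-ASO against both reference groups when that liver was left out, and in no other fit that was run. Tra2a, a splicing activator of the transformer-2 type, was at 13.9, 14.3, 16.1 and 14.5 CPM in DPBS livers, at 14.5, 13.4, 18.4 and 13.9 CPM in Control-ASO livers and at 19.6, 21.9, 15.6 and 18.4 CPM in Upf3b-ASO livers. The groups overlapped through male 3 of each group. With all livers its log2 difference was 0.33 ± 0.13 against Control-ASO (edgeR, adjusted p = 0.13) and 0.36 ± 0.13 against DPBS (adjusted p = 0.12). Without Control-ASO replicate 3 it rose by 0.45 ± 0.11 (adjusted p = 0.013) and 0.37 ± 0.10 (adjusted p = 0.019).

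Srsf4, a large SR protein with a long arginine-serine domain, was at 28.8, 28.3, 28.7 and 23.6 CPM in DPBS livers, at 24.4, 24.6, 50.8 and 23.5 CPM in Control-ASO livers and at 32.6, 33.3, 30.4 and 30.2 CPM in Upf3b-ASO livers. In CPM the Upf3b-ASO livers were all above the DPBS livers, as were those of 10.4% of the genes tested, and above 3 of the 4 Control-ASO livers. In TPM they overlapped the DPBS livers (17.13 to 22.78 against 14.05 to 21.19 TPM). The log2 difference was 0.05 ± 0.22 against Control-ASO (edgeR, adjusted p = 0.90) and 0.21 ± 0.22 against DPBS (adjusted p = 0.64) with all livers. Without Control-ASO replicate 3, Srsf4 rose by 0.41 ± 0.08 (adjusted p = 0.0031) and 0.22 ± 0.07 (adjusted p = 0.036). The DPBS comparison moved because all groups share 1 estimate of the spread, in which that liver counts.

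Srsf6, an SR protein known to regulate its own poison exon, was at 78.5, 81.8, 74.8 and 75.6 CPM in DPBS livers, at 73.6, 75.9, 78.5 and 76.2 CPM in Control-ASO livers and at 86.4, 88.1, 78.4 and 88.5 CPM in Upf3b-ASO livers. Of the treated livers 3 were above all others, and replicate 3 was within the other groups' range. The log2 difference was 0.17 ± 0.07 against Control-ASO (edgeR, adjusted p = 0.13) and 0.14 ± 0.07 against DPBS (adjusted p = 0.24). Without Control-ASO replicate 3, Srsf6 passed against Control-ASO (0.20 ± 0.06, adjusted p = 0.035) and not against DPBS (0.14 ± 0.05, adjusted p = 0.070). The same fit called 24.6% of 8796 genes against Control-ASO and 28.8% against DPBS, beside 3 and 2 of the 10 members, and 0.0568% between the reference groups, beside 0 members.

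The other 7 genes passed no test between the groups with or without that liver. Srsf3 and Srsf11 had negative log2 differences against Control-ASO with all livers, -0.56 ± 0.32 and -0.51 ± 0.25, which became -0.06 ± 0.14 and -0.12 ± 0.08 without Control-ASO replicate 3. Tra2b changed sign in the same way, from -0.15 ± 0.20 to 0.15 ± 0.08. Srsf5, the most abundant member at a mean of 198 TPM (TPM count transcripts per length and library total), was at -0.37 ± 0.17 and then -0.14 ± 0.08. Srsf2, a nuclear SR protein that also acts in transcription, was at 0.04 ± 0.07 against Control-ASO and -0.06 ± 0.07 against DPBS. Srsf1, the founding SR protein, was at 0.04 ± 0.13 and -0.22 ± 0.13, and Srsf7, an export adaptor like Srsf3, at 0.05 ± 0.17 and 0.18 ± 0.17. Tra2a, at 10.9 TPM, was the least abundant gene per length.

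**Figure D3:**
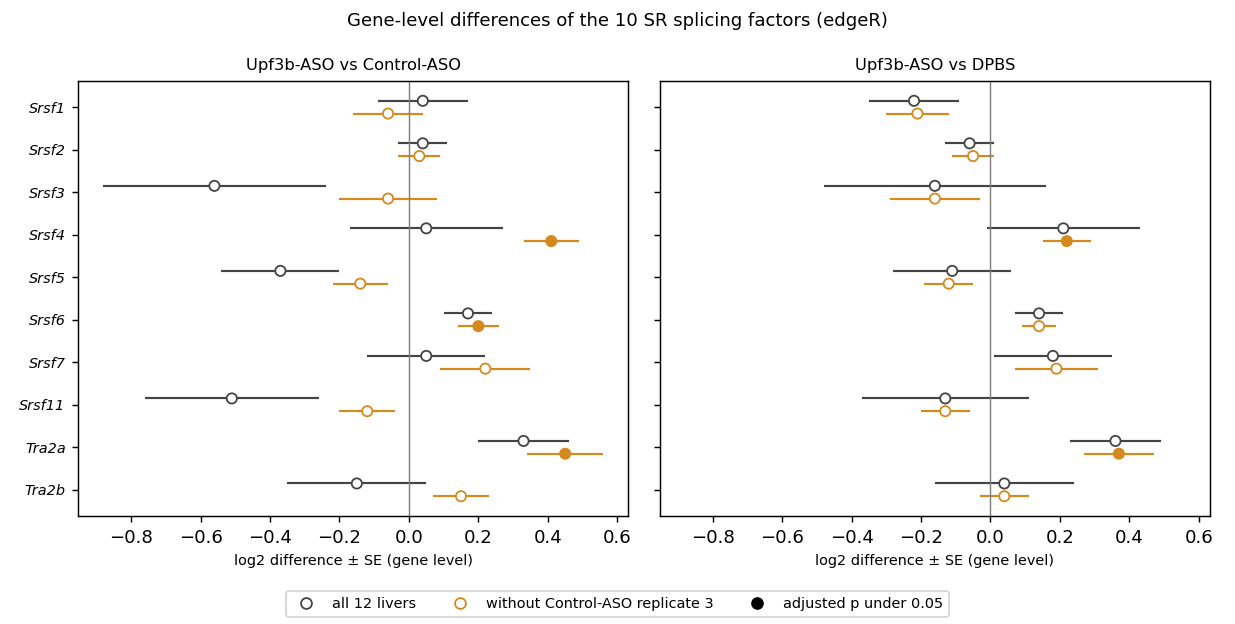
Log2 difference ± SE (x axis) of each gene (y axis) for Upf3b-ASO against Control-ASO (left) and DPBS (right), with all 12 livers (black) and without Control-ASO replicate 3 (orange). Filled points passed at an adjusted p under 0.05: Srsf4, Srsf6 and Tra2a on the left and Srsf4 and Tra2a on the right, each only without that liver.

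Transcripts were then tested singly, since a gene sum hides a shift between coding and decay isoforms. None of the 53 tested transcripts of the 10 genes passed in any comparison, where 0.73% of 37679 transcripts were called against Control-ASO, 0.746% against DPBS and 0% between the reference groups. At an unadjusted p under 0.05, 6, 5 and 1 of the 53 passed (11.3, 9.43 and 1.89%), no more than the 11.6, 9.54 and 4.07% of all transcripts tested. With the replicate number as a block, which here also carries sex, 96 of all transcripts tested were called against Control-ASO in place of 275, and 102 in place of 281 against DPBS. DESeq2, run on the same counts, called 2 of the 53 member transcripts against Control-ASO (Srsf6-201 and Srsf5-201), 1 against DPBS (Srsf6-204) and 0 between the reference groups, beside 4.42, 3.46 and 0.3% of all transcripts tested. The 10 tested NMD transcripts had a median log2 difference of -0.03 against Control-ASO and -0.01 against DPBS, beside 0.05 and 0.09 over all 2265 NMD transcripts tested. The 21 retained-intron transcripts had medians of -0.30 and -0.07, beside -0.16 and -0.01 over 7048, and the 19 coding transcripts 0.02 and -0.03, beside 0 and -0.01 over 23497.

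The poison isoform of Srsf6 was the NMD transcript with the lowest unadjusted p. Srsf6-201 was at 13.4, 15.8, 10.5 and 12.1 CPM in DPBS livers, at 10.8, 10.8, 9.23 and 15.5 CPM in Control-ASO livers and at 15.9, 20.7, 15.9 and 19.6 CPM in Upf3b-ASO livers. In CPM the treated livers did not overlap either reference group, which held for 3.8% of all transcripts tested against Control-ASO and 4.59% against DPBS in this direction. The lowest of them (15.9 CPM) was close to the highest of the others (15.8 CPM). In TPM the treated livers, at 11.16 to 18.17, overlapped both DPBS (up to 13.13) and Control-ASO (up to 11.23). The log2 difference of Srsf6-201 was 0.63 ± 0.19 against Control-ASO (edgeR, unadjusted p = 0.0078, adjusted p = 0.22) and 0.48 ± 0.19 against DPBS (adjusted p = 0.44). Without Control-ASO replicate 3 the values were 0.55 ± 0.19 (adjusted p = 0.24) and 0.48 ± 0.18 (adjusted p = 0.23). With DESeq2 the difference against Control-ASO was 0.64 and passed (adjusted p = 0.042).

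Srsf6-204, which retains the intron around the same exon, was at 7.95, 10.7, 6.57 and 9.28 CPM in DPBS livers, at 7.99, 13.2, 8.66 and 8.84 CPM in Control-ASO livers and at 14.6, 15.5, 10.6 and 15.3 CPM in Upf3b-ASO livers. Treated replicate 3 was the only treated liver within the range of the others. Its log2 difference was 0.54 ± 0.20 against Control-ASO (edgeR, adjusted p = 0.33) and 0.70 ± 0.20 against DPBS (adjusted p = 0.21), and DESeq2 called the latter (0.71, adjusted p = 0.029). With Control-ASO replicate 3 left out, edgeR gave 0.53 ± 0.22 (adjusted p = 0.34) and 0.70 ± 0.20 (adjusted p = 0.12). The coding transcript Srsf6-203 ran from 49.4 to 55.6 CPM over all 12 livers, with log2 differences of 0.03 ± 0.07 (adjusted p = 0.93) against Control-ASO and -0.05 ± 0.07 (adjusted p = 0.94) against DPBS. Srsf6-201 and Srsf6-204 share the sequence of the poison exon, so Salmon's division of reads between them is an estimate.

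**Figure D4:**
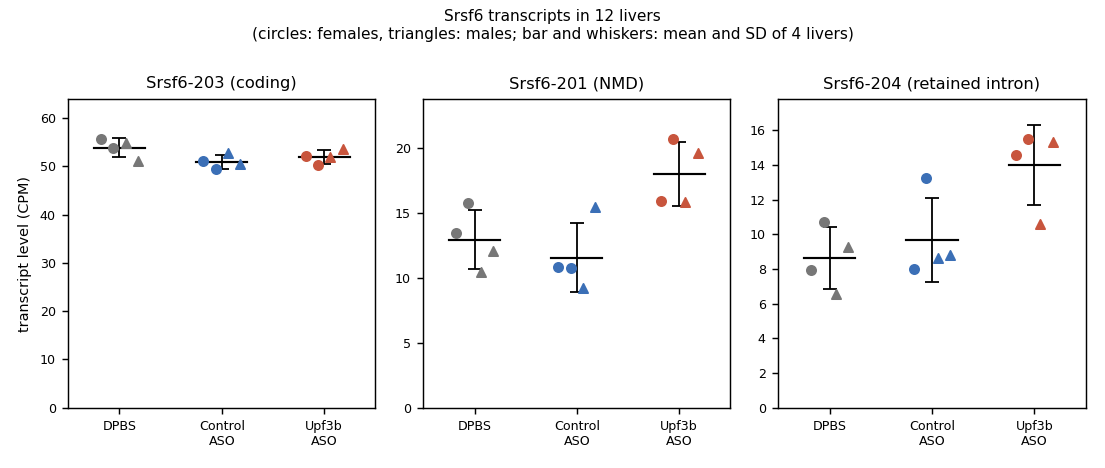
Level in CPM (y axis, from 0) of the coding, NMD and retained-intron transcripts of Srsf6 in each liver by group (x axis), with the mean and SD of 4 livers. The coding transcript stays between 49.4 and 55.6 CPM, and all 4 Upf3b-ASO livers are at or above 15.9 CPM for the NMD transcript.

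The share of a gene on a class of transcript, its TPM in the class over its total TPM, does not depend on the scaling of a library. The NMD share of Srsf6 was 31.8, 34.9, 27.4 and 30.5% in DPBS livers, 28.7, 27.2, 24.8 and 36.3% in Control-ASO livers and 34.0, 40.4, 35.7 and 38.1% in Upf3b-ASO livers. The mean was 31.2 ± 3.09%, 29.3 ± 4.98% and 37.0 ± 2.77% (SD, n = 4), and the groups overlapped. On the log2 scale of NMD over other TPM the difference was 0.51 ± 0.25 against Control-ASO (limma, adjusted p = 0.75) and 0.38 ± 0.25 against DPBS (adjusted p = 0.85). The retained-intron share of Srsf6 was higher in all Upf3b-ASO livers (12.9 to 16.9%) than in all DPBS livers (9.34 to 12.9%), as was that of 1.95% of the genes tested, with a log2 difference of 0.53 ± 0.24 (limma, adjusted p = 0.80). Against Control-ASO (11.3 to 18.1%, with replicate 2 above every treated liver) the groups overlapped and the difference was 0.27 ± 0.24 (adjusted p = 0.76). Leaving out Control-ASO replicate 3, the NMD share differed by 0.41 ± 0.26 against Control-ASO and the retained-intron share by 0.28 ± 0.25 (limma, adjusted p = 0.84 and 0.86).

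With both classes summed, a measure added after the data were seen, the rest of Srsf6 was coding. Its coding share was 58.0, 52.3, 63.2 and 56.8% in DPBS livers, 59.8, 54.7, 62.6 and 52.4% in Control-ASO livers and 49.0, 43.2, 51.4 and 45.8% in Upf3b-ASO livers. All treated livers lay under all others, by 10.0 percentage points in the mean against Control-ASO and 10.2 against DPBS. The combined decay share was above without overlap in 1.47% and 2.49% of the genes tested in these comparisons, and its log2 difference for Srsf6 was 0.58 ± 0.22 (limma, adjusted p = 0.59) and 0.59 ± 0.22 (adjusted p = 0.72). The combined share was called in 0 and 0.0226% of the 4424 genes tested, and in 0 of the 8 members. The differences for Srsf6 were 0.49 (limma, adjusted p = 0.69) and 0.59 (adjusted p = 0.60) when Control-ASO replicate 3 was left out.

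None of the 8 genes with NMD transcripts passed the test of the NMD share or of the retained-intron share in any comparison. Of the genes tested, 1 of 1935 (0.0517%) was called for the NMD share in each Upf3b-ASO comparison, and 0 and 2 of 4043 (0.0495% against DPBS) for the retained-intron share. At an unadjusted p under 0.05, limma passed 0 of the 8 genes for the NMD share in either Upf3b-ASO comparison, beside 6.82 and 6.05% of all genes tested. For the retained-intron share it passed 0 and 1 (Srsf6 against DPBS), beside 8.78 and 5.99%. The NMD share differed widely between the genes. The mean NMD shares of Srsf4 were 30.6, 32.2 and 34.9% in the DPBS, Control-ASO and Upf3b-ASO groups, those of Srsf2, which include Srsf2-202, whose reads could not be told apart from those of a coding model, were 19.9, 21.1 and 19.6% and those of Srsf1 17.4, 14.2 and 14.3%. Tra2b was at 16.4, 14.9 and 13.9%, with Control-ASO replicate 3 at 32.4% and a mean of 9.14% over the other 3 Control-ASO livers. Its log2 difference against Control-ASO went from 0.12 ± 0.61 to 0.75 ± 0.45 (limma, adjusted p = 0.84) without that liver. Srsf11 was at 12.02, 12.65 and 12.35%, Srsf3 at 11.7, 10.2 and 11.95% and Srsf5 at 1.16, 2.31 and 1.29%. Srsf3 and Srsf11 lay mostly on retained-intron transcripts, with shares of 63.4 to 75.2% and 54.6 to 74.4% over the 12 livers.

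**Figure D5:**
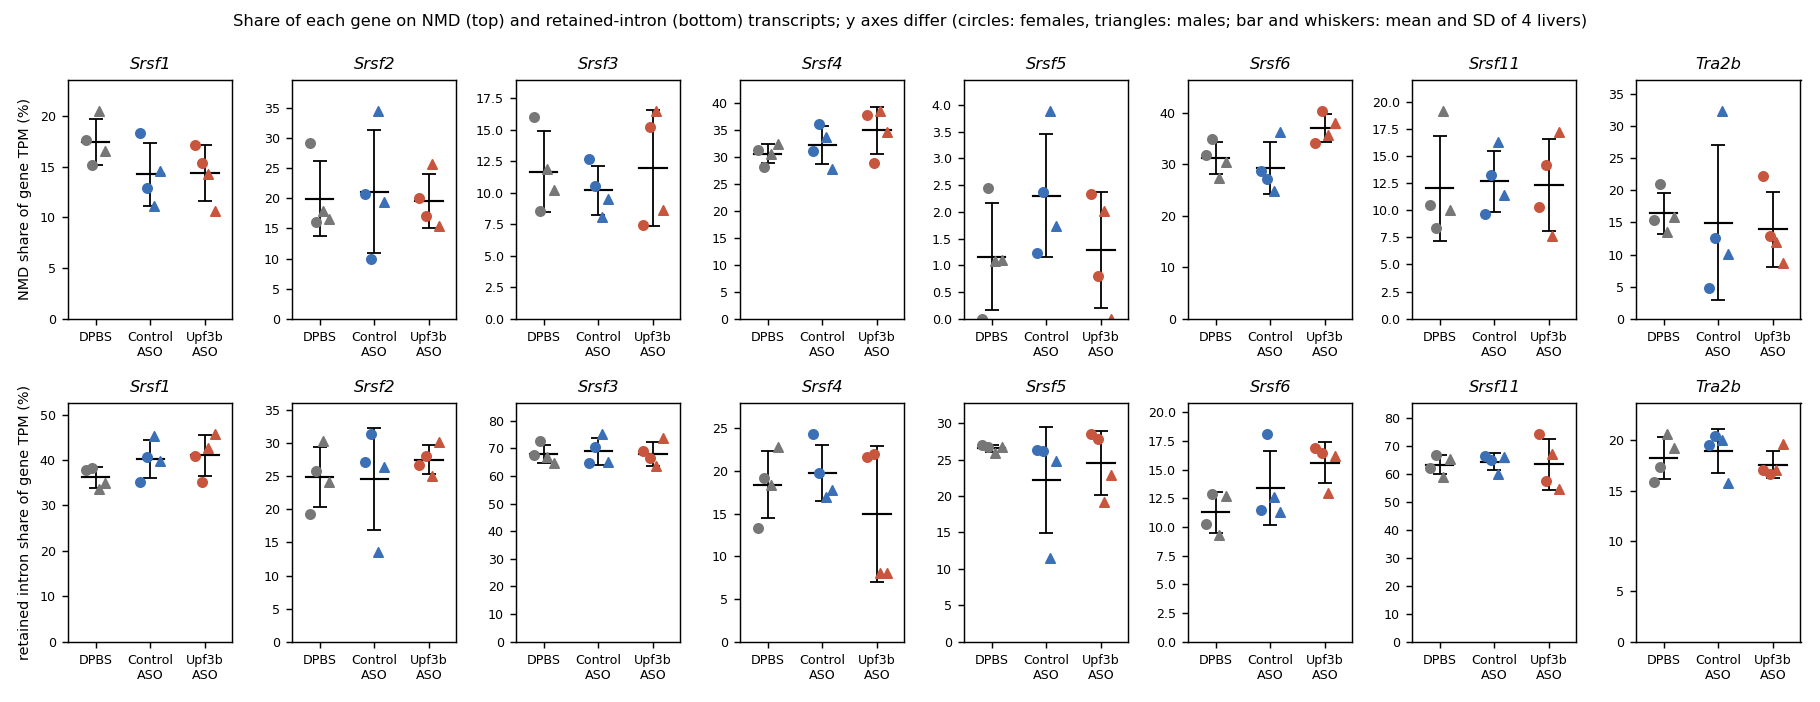
Share in percent of the TPM of a gene (y axes from 0, differing between panels) on NMD transcripts (top row) and on retained-intron transcripts (bottom row) in each liver by group, with the mean and SD of 4 livers. The 4 Upf3b-ASO livers of Srsf6 reach NMD shares of 34.0 to 40.4%, which overlap those of both reference groups (DPBS up to 34.9%, Control-ASO up to 36.3%).

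Like Srsf6-201, the other NMD transcripts passed no edgeR test, and several had 1 outlying animal. Tra2b-206, which includes the Tra2b poison exon, was at 5.80, 9.06, 4.70 and 5.86 CPM in DPBS livers, at 1.60, 4.73, 20.7 and 3.71 CPM in Control-ASO livers and at 8.64, 5.71, 4.27 and 3.33 CPM in Upf3b-ASO livers. Its highest value was again Control-ASO replicate 3, and its log2 difference against Control-ASO turned from -0.43 ± 0.72 to 0.71 ± 0.40 (adjusted p = 0.52) without that liver. The 2 NMD transcripts of Srsf4, Srsf4-203 and Srsf4-204, had log2 differences of 0.16 ± 0.37 and 0.35 ± 0.40 against Control-ASO (edgeR, adjusted p = 0.92 and 0.81). Without Control-ASO replicate 3 they were 0.47 ± 0.35 and 0.76 ± 0.38 (edgeR, adjusted p = 0.67 and 0.44). Against DPBS with all livers they were 0.25 ± 0.37 and 0.64 ± 0.40 (edgeR, adjusted p = 0.94 and 0.73). Against Control-ASO with all livers, the differences of Srsf3-201 (-0.24 ± 0.39), Srsf1-204 (0.16 ± 0.27), Srsf2-204 (-0.22 ± 0.44), Srsf11-210 (-0.72 ± 0.53) and Srsf5-208 (-1.24 ± 1.21) had unadjusted p of 0.2 to 0.63. Srsf2-202 had exactly the counts of Srsf2-206, a coding model, in every liver, so reads were split evenly between them and neither has a level of its own (1.05 ± 0.82 for each). Srsf1-207, Srsf11-206 and Srsf11-212 were too low to be tested.

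Retained-intron transcripts of the members ranged from -2.43 (Srsf11-218, which had 0 to 46.5 counts per liver) to 0.54 (Srsf6-204) against Control-ASO. The most abundant of them, Srsf5-212, was at 103.8, 99.5, 72.7 and 73.5 CPM in DPBS livers, at 106.9, 99.7, 33.3 and 59.4 CPM in Control-ASO livers and at 106.0, 92.5, 48.4 and 56.6 CPM in Upf3b-ASO livers. Females were above males in each group, with 2 livers per sex and group. Sex differences of single transcripts were not tested. Srsf4-201 was at 11.3 CPM in both treated females and at 4.39 and 4.23 CPM in the treated males, while the other groups ran from 6.24 to 12.9 CPM. Over whole libraries, retained-intron transcripts held 18.2 to 24.2% of the TPM of the protein-coding genes that have any, with the highest value in Control-ASO replicate 3. NMD transcripts held 15.9 to 16.3% in the Upf3b-ASO livers and 14.5 to 15.8% in the other 8.

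Among coding transcripts, the lowest unadjusted p was that of Srsf5-201, a minor coding isoform of Srsf5 that was singled out after its values were seen. It was at 7.89, 13.2, 12.6 and 11.8 CPM in DPBS livers, at 23.2, 16.6, 26.6 and 15.4 CPM in Control-ASO livers and at 6.48, 11.5, 4.37 and 4.55 CPM in Upf3b-ASO livers. Control-ASO livers were above both other groups without overlap, as were those of 3.5% of transcripts tested against Upf3b-ASO and 1.24% against DPBS. The log2 difference of Upf3b-ASO was -1.63 ± 0.33 against Control-ASO (edgeR, adjusted p = 0.059) and -0.80 ± 0.33 against DPBS (adjusted p = 0.45), and that of Control-ASO against DPBS was 0.84 ± 0.32 (adjusted p = 0.99). Without Upf3b-ASO replicate 2 the first passed (-1.99, adjusted p = 0.032), as it did with DESeq2 (-1.63, adjusted p = 2e-04). The main coding isoform Srsf5-205 was at -0.27 ± 0.30 against Control-ASO, with its highest level, 141.1 CPM, in Control-ASO replicate 3, and at 0.20 ± 0.11 without that liver. The single transcript of Tra2a, Tra2a-201, was at 0.38 ± 0.13 against either reference group (adjusted p = 0.27 and 0.32).

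None of the 10 genes passed the test between males and females, where 10% of genes tested were called. Srsf5 had the lowest adjusted p, with 230.6 CPM in males and 282 CPM in females (log2 difference -0.32 ± 0.14, male minus female, edgeR, adjusted p = 0.19). Srsf5 was lower in males when Control-ASO replicate 3 was left out (-0.46, edgeR, adjusted p = 0.00049). Of the 8796 genes tested, that fit called 914 higher and 1017 lower in males. The difference between the sexes in the effect of Upf3b-ASO against Control-ASO, with 2 livers per sex and group, passed for 0 of 10 members and 0% of genes tested (adjusted p from 0.59 to 0.88 for the members). At an unadjusted p under 0.05 it passed for 0 members, and DESeq2 also called 0 members.

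Other genes of the pathway were taken from 3 lists and counted with all 12 livers. Against Control-ASO, 0 of 4, 1 of 8 and 1 of 22 tested genes passed, beside 10.3% of all genes tested (either direction). Against DPBS 0, 0 and 1 passed, beside 8.93%. Of 7 further SR and SR-related genes, with Srsf or Scaf symbols, 4 were tested and none passed against either reference group. Of 9 kinases that phosphorylate SR proteins 8 were tested, and only Srpk1, the cytoplasmic kinase that sends SR proteins to the nucleus, rose against Control-ASO. It was at 32.3, 35.0, 35.8 and 36.2 CPM in DPBS livers, at 31.6, 29.3, 24.5 and 33.1 CPM in Control-ASO livers and at 36.5, 39.3, 42.3 and 43.9 CPM in Upf3b-ASO livers, a log2 difference of 0.45 ± 0.10 (edgeR, adjusted p = 0.021). Against DPBS the difference was 0.22 (adjusted p = 0.23), with no overlap between the groups in either comparison, which held for 7.74% and 10.4% of genes in this direction. The call was lost without Upf3b-ASO replicate 2, 3 or 4 (adjusted p = 0.052, 0.059 and 0.074), when transcript length entered as an offset (0.089) and by limma on the TPM (0.15), while the DPBS difference passed without Control-ASO replicate 3 (adjusted p = 0.013). Of 22 SR-related partners and carriers only Luc7l2, a U1 snRNP-associated factor of splice site choice, passed, and it fell.

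Luc7l2 was at 116.9, 121.4, 143.1 and 130 CPM in DPBS livers, at 127.6, 130.8, 253.5 and 134.3 CPM in Control-ASO livers and at 62.4, 59.6, 55.9 and 49.3 CPM in Upf3b-ASO livers. No treated liver overlapped another group, as in 7.69% and 12% of genes that lay below Control-ASO and DPBS. Luc7l2 fell by 1.48 ± 0.20 against Control-ASO (edgeR, adjusted p = 0.0014) and by 1.16 ± 0.20 against DPBS (adjusted p = 0.0052). Without Control-ASO replicate 3, which was its highest liver, it fell by 1.2 (adjusted p = 1.2e-05) and 1.16 (adjusted p = 7.3e-06). The median log2 difference over the list was -0.14 against Control-ASO and 0.04 against DPBS.

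The 5 tested genes whose log2 CPM ran most closely with the mean of the standardized members over the 12 livers were U2surp (Pearson r = 0.92), Clint1, Daxx, Spty2d1 and Magohb (0.90 each). Without Control-ASO replicate 3 the values were 0.82 to 0.89 over 11 livers. The values share libraries and their normalization, and are given as a description.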

How the data were processed

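Total RNA of 12 livers, 4 per group, was sequenced on an Illumina instrument from TruSeq libraries. Per the study's methods and processing notes, the authors converted reads with bcl2fastq 2.17.1.14 and quantified them with Salmon 0.7.2 by quasi-mapping against the Ensembl cDNA set (GRCm38.p4). The deposited files give estimated counts and TPM per transcript, 1 file per liver. Salmon divides reads shared by isoforms by a model, so levels of overlapping transcripts depend on one another. Of 92468 transcripts, 98.1% were joined by identifier to GENCODE M21, which gave genes, biotypes and exons. Depth was 13.28 to 20.39 M estimated counts per liver. In the TPM values 1 unjoined transcript took 2.39 to 15.98% of a liver, so levels were compared between livers as CPM.

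Estimated counts were rounded. Genes with TPM of at least 5 in at least 4 livers (8846) and transcripts with at least 10 counts in at least 4 livers (37679) were tested over all 12 livers with edgeR 4.0.16 (quasi-likelihood test, TMM normalization, sex as a covariate). Shares were tested with limma 3.58.1 on log2 of class TPM over other TPM, with 0.1 TPM added to both. All p-values were two-sided and adjusted by Benjamini-Hochberg over all features tested, with 0.05 as the threshold. They set the group differences against the spread between animals. The uncertainty in Salmon's division of reads between isoforms was not modelled. The scripts were tested on simulated data. Alternatives were DESeq2 1.42.0, no filter, no sex term, limma on log2 TPM, a length offset, the replicate block, other pseudocounts and leaving out each liver. The members and lists were chosen with earlier results of these data known. Named were all members, their main coding, NMD and retained-intron transcripts, the listed genes that passed, Rnps1, U2af1 and the 5 genes most like the members.

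Deviations of same-numbered livers from their group means correlated at 0.21 to 0.65 over genes, but replicate numbers follow sex, and the correlation was -0.48 to 0.27 once sex was removed. Removing sex lowers such correlations by construction, so the second range cannot exclude a pairing. Livers of the same sex with another number correlated at 0.24 to 0.66, close to the first range. No pairing beyond sex was seen in these ranges. Livers treated against Upf1 were not analysed here, nor were poison isoforms of Srsf7 and Tra2a.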

Additional observations from a re-analysis of the deposited data

Results flagged for a closer look

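The highest or lowest liver of a group of 4 stood far from the other 3 (gap over range above Dixon's 95% critical value) in 5 of 30 gene level groups, 15 of 126 transcript groups and 3 of 48 share groups. The transcript groups do not cover every tested transcript. Chance gives about 1 in 20 for independent groups of like animals. Here the groups share livers and reads and mix the sexes, so the counts cannot be set against that rate. Control-ASO replicate 3, the liver with the high acute-phase sum, made up 3, 9 and 1 of these. At the gene level it was high for Srsf4 (50.81 CPM), Srsf11 (129.9 CPM) and Tra2b (83.1 CPM). DPBS replicate 4 was high for Srsf1 (81.14 CPM) and low for Srsf4 (23.58 CPM).

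Among transcripts, Control-ASO replicate 3 was high for Srsf11-213 (19.39 CPM), Srsf11-202 (40.54 CPM), Tra2b-206 (20.71 CPM), Tra2b-203 (8.513 CPM), Srsf4-202 (26.47 CPM), Srsf4-204 (4.397 CPM), Srsf3-204 (30.79 CPM) and Srsf3-205 (42.9 CPM) and low for Srsf1-201 (12.37 CPM). These include coding, decay and retained-intron transcripts, and the part of the acute-phase state in them was not tested. DPBS replicate 3 was low for Srsf11-203 (2.455 CPM), Srsf1-203 (5.327 CPM) and Srsf2-201 (55.24 CPM). DPBS replicate 1 was low for Srsf4-201 (6.239 CPM) and high for Srsf2-204 (9.855 CPM), and Control-ASO replicate 2 was high for Srsf6-204 (13.24 CPM). Of the shares, the Srsf2 NMD share was high in DPBS replicate 1 (29.26%), the Srsf5 retained-intron share was low in Control-ASO replicate 3 (11.44%) and the Tra2b retained-intron share was high in Upf3b-ASO replicate 4 (19.64%).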

How the results depend on the processing

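Of 1012 values of single genes, transcripts and shares under another setting, 986 stayed on their side of the threshold and did not change sign by more than 1 SE, and of 1938 with 1 liver left out, 1908 did. Among these, 22 and 98 values that passed in neither fit did change sign within 1 SE, such as Tra2b-206 against Control-ASO (-0.43, and 0.03 and 0.08 with limma on log2(TPM + 1) and log2(TPM + 0.1)). The values past these bounds are given here or beside the result, except sex differences called by limma on TPM that did not reverse, which are only counted. The cause of these changes was not tested. The lowest tested transcripts had 0 counts in some livers, which limits the precision of their values.

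Genes called against Control-ASO numbered 910, and 1584 with DESeq2, 519 without the sex term, 347 and 334 with limma on log2(TPM + 1) and log2(TPM + 0.1), and 436 to 2167 with 1 liver left out (0 to 3 members). Against DPBS they numbered 790, then 1274, 477, 325 and 313, and 393 to 2535 (0 to 2 members). Between the reference groups 1 was called, 43 with DESeq2, 0 with either limma fit, the length offset or the replicate block, and 0 to 5 with 1 liver left out. Transcripts called against Control-ASO numbered 275, and 1664 with DESeq2 (2 members), 159 without the filter, 147 without the sex term, 181 and 169 with limma, 96 with the replicate block, and 83 to 824 with 1 liver left out (0 to 1 member). Against DPBS they numbered 281, then 1303 (1 member), 161 and 184, 102 with the replicate block, and 90 to 1122. Between the reference groups 0 were called, 113 with DESeq2, 2 with limma on log2(TPM + 0.1) and 0 to 1 with 1 liver left out.

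The NMD share was called in 1 gene against Control-ASO, in 0 at TPM of at least 1, without the sex term or with the replicate block, in 3 on estimated counts, in 4 when the class was set by the stop codon rule and in 0 to 2 with 1 liver left out. Against DPBS it was 1, 0 without the sex term, 2 by the stop codon rule and 1 to 3, and between the reference groups 0, 1 without the sex term and 0 to 1. The retained-intron share was called in 0 genes against Control-ASO, in 3 with a pseudocount of 0.5, in 1 on estimated counts or without the sex term and in 0 to 1 with 1 liver left out, and in 2 against DPBS, 6 with that pseudocount, 1 at TPM of at least 1, 0 with the replicate block and 0 to 2. The replicate block changed no call of a member.

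Sex differences numbered 887, 1359 with DESeq2, 558 without the treatment term, 573 to 1931 with 1 liver left out (0 to 1 member), and 3062 and 2972 with limma on TPM, which called 6 members each. There the median over all genes moved to -0.29 and -0.31 and the share of calls higher in males from 42.8% to 4.6 and 4.7%, and the differences reversed for Srsf3 (-0.33, -0.34), Srsf4 (-0.19, -0.20), Srsf11 (-0.16, -0.16), Tra2a (-0.29, -0.31) and Tra2b (-0.27, -0.28).

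With Control-ASO replicate 3 left out, differences against Control-ASO changed sign (ranges over all livers left out) for Tra2b (-0.25 to 0.15), Srsf5-205 (-0.43 to 0.20), Srsf11-213 (-0.64 to 0.07), Srsf11-219 (-0.97 to 0.09), Tra2b-206 (-0.95 to 0.71), Srsf3-201 (-0.45 to 0.16), Srsf3-205 (-0.80 to 0.04), Srsf2-204 (-0.52 to 0.22) and the retained-intron shares of Srsf2 (-0.07 to 0.45) and Srsf5 (-0.07 to 0.44). Between the reference groups they did for Srsf3 (-0.10 to 0.60), Srsf4 (-0.19 to 0.28), Srsf11 (-0.02 to 0.50) and Tra2b (-0.11 to 0.30), and for sex in Srsf3 (-0.24 to 0.17), Srsf4 (-0.10 to 0.19) and Tra2b (-0.12 to 0.13). Without DPBS replicate 1 they did against DPBS for Srsf2-204 (-0.36 to 0.31) and the Srsf5 NMD share (-1.10 to 1.56).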
